A study of Mus musculus with 2 samples.

Results

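Annexin A1 (Anxa1), its relatives Anxa2 and Anxa3 and the formyl peptide receptors Fpr1 and Fpr2 were followed through GR1+ cells of 4T1 tumors. These 5 of the 32285 listed genes were chosen on measured values, since Anxa1 was already known to be among the genes with the lowest ratio between the libraries in neutrophils, and its ratio is therefore a description. All 5 were detected in both libraries. 4T1 is a mouse mammary carcinoma line grown in BALB/c mice. The mice were 6 to 8 weeks old by the labels, and the methods of the study give a higher range. 4T1P is the parental form of 4T1, whose tumors do not respond to anti-PD1. 4T1M is a mutagenized line derived from 4T1P, whose tumors do respond. Both tumor types were dissociated and their cells were collected with magnetic beads on GR1, an antigen shared by Ly6G and Ly6C that takes neutrophils and monocytic cells together. The labels do not name a treatment for the mice of either library. The methods of the study place the harvest for single cell assays at baseline, before treatment. Cells of 5 mice per the labels (a legend of the study gives a smaller number) were pooled into 1 droplet library per tumor type, so the variation from mouse to mouse is not known and tumor types were not tested against each other, and every 95% interval below covers counting error only.

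Annexin A1 is a calcium-dependent phospholipid-binding protein, abundant in neutrophils, that is released on activation and induced by glucocorticoids. It signals through the G protein-coupled receptor encoded by Fpr2 and limits neutrophil recruitment. Fpr1 is the receptor for bacterial formylated peptides and drives chemotaxis, Anxa2 forms a membrane complex with S100a10, and Anxa3 is a further annexin of myeloid cells.

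On GRCm38, Anxa1 (ENSMUSG00000024659) lies at chr19:20373428-20390944 on the minus strand, Anxa2 (ENSMUSG00000032231) at chr9:69453620-69491795 and Anxa3 (ENSMUSG00000029484) at chr5:96793339-96845966, both on the plus strand. Fpr1 (ENSMUSG00000045551, chr17:17876471-17883940, minus) and Fpr2 (ENSMUSG00000052270, chr17:17887824-17893952, plus) are neighbors that face away from each other across 3883 bases. The 250 bases before the start of each receptor gene are shown because both receptors were found mainly in neutrophils. Each line gives the 250 bases before the RefSeq start (GRCm38.p6), and for Anxa1 a stretch of 30 bases before its RefSeq start, 5′ to 3′ on the strand of the gene, with the motif matches in capitals.
Fpr1 (chr17:17883940-17884189, minus): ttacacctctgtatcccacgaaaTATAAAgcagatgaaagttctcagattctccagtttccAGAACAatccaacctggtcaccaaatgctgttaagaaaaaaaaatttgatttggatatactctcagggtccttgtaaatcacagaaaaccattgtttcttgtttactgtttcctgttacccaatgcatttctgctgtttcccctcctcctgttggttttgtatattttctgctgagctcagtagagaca
Fpr2 (chr17:17887574-17887823, plus): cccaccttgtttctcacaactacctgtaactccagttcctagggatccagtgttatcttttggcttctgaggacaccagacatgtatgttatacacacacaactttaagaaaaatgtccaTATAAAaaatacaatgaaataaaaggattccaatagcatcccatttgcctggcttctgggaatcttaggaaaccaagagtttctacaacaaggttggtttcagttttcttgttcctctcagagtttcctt
Anxa1 (chr19:20390684-20390713, minus): gttcatatccTATAAAatcaggagtccaac
Motifs were searched for on both strands. The TATA box was taken as TATAAA, the site of AP-1 (the Fos and Jun dimer) as TGANTCA, and the site of C/EBP factors, which act in granulocyte maturation, as TTGCNNAA. GAGGAAGT stood for the site of the myeloid factor PU.1, GAAANNGAA for an interferon-responsive element, and the core of a glucocorticoid receptor site was AGAACA. The TATA motif was found in all 4 members with a RefSeq entry (Anxa1, Anxa2, Fpr1 and Fpr2) and in 13.0% of 27025 promoters of this length. Distances are from the RefSeq start, which for Anxa1, Anxa2 and Fpr1 lies inside the span given above. The TATA motif began 32 bases before it in Anxa1, 17 in Anxa2, 227 in Fpr1 and 130 in Fpr2. Whether any of these matches acts as a TATA box was not tested. In Fpr1 the second run of capitals is the glucocorticoid receptor core, which 16.2% of promoters held. Outside the printed stretch, Anxa1 held 1 C/EBP match (9.55% of promoters), and Anxa2 held 1 AP-1 match (6.87%). The PU.1 site (2.44% of promoters) and the interferon-responsive element (7.16%) were found in none of the 4.

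Read sharing touches Fpr2 and Anxa3. The annotated Fpr3 overlaps 6101 bases of Fpr2 on the same strand, and 408 of the 1295 stretches of 50 bases in Fpr2 transcripts also occur in transcripts of Fpr1, Fpr3 or Gm5966, though 0 of the 550 in the last 500 bases do. The level of Fpr2 is uncertain to that extent. For Anxa3, 66 of 3677 such stretches also occur in Gm42603, which overlaps 2146 of its bases on the same strand, and 0 of the 2391 in the last 500 bases do. For Fpr1 1 of 1275 such stretches was shared, and for Anxa1 and Anxa2 0 were. Anxa1 is also overlapped on the opposite strand by the noncoding 1500015L24Rik.

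The 4T1P library held 2947 barcodes with 21855657 unique molecular identifiers (UMIs, each standing for 1 captured transcript) and the 4T1M library 5004 with 24303957, and 5 barcode sequences occurred in both (3 among the cells kept). Limits of 500 to 5000 genes and 10% mitochondrial UMIs left 1726 and 3461 cells. Neutrophils had at least 1.5% of UMIs from S100a8 and S100a9 and under 0.5% from C1qa, C1qb, C1qc and Apoe (612 cells in 4T1P and 1686 in 4T1M). Macrophages were below that S100 limit with at least 0.3% from these 4 genes, Csf1r, Cd68 and Fn1 (798 and 976 cells). All 15 neutrophil markers were detected in the neutrophils, at a summed 189760 CPM (counts per 1000000 UMIs of the class) in 4T1P and 152035 in 4T1M, against 807 and 1483 in the macrophages. S100a8 and S100a9 are among these 15 and also set the classes, so this contrast was in part fixed by the limits. Macrophage markers, which include the genes of the macrophage limits, summed to 2623 and 2313 CPM in neutrophils. Markers of epithelial or tumor cells summed to 73.5 and 13.5 CPM there, and their part in the results was not tested. Median UMIs per cell were 3054.5 and 2957.5 in neutrophils and 9727 and 9213.5 in macrophages.

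Anxa1 was higher in neutrophils than in macrophages as a whole, with its highest level in a few cells. In neutrophils it stood at 1881 CPM in 4T1P (1828 to 1935, 4708 UMIs) and 1077 CPM in 4T1M (1052 to 1102, 7086 UMIs). Macrophages held 280 CPM in 4T1P and 252 in 4T1M. Neutrophils thus exceeded macrophages 6.72-fold in 4T1P and 4.27-fold in 4T1M. Without the granule-rich cells described below, the excess was 3.10-fold and 1.97-fold. In 4T1M, the 215 macrophages under 0.5% of UMIs from the C1q genes and Apoe held 496 CPM. The 1592 neutrophils of 4T1M under 0.1% from the granule genes Camp, Ngp and Ltf held 385 CPM. In 4T1P these macrophages and neutrophils held 432 and 590 CPM. T or NK cells had 34.9 CPM (16 UMIs) and 24.0 CPM (12 UMIs), and B cells 6 and 2 UMIs. The part of free RNA in these counts was not tested.

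Most neutrophil Anxa1 came from cells rich in granule transcripts. Camp (cathelicidin), Ngp (neutrophilic granule protein) and Ltf (lactoferrin) encode proteins of the secondary granules, which neutrophils make before they leave the bone marrow. Cells with at least 1% of UMIs from these 3 genes numbered 18 of 612 in 4T1P (2.94%) and 46 of 1686 in 4T1M (2.73%). They held 59.7% of the neutrophil Anxa1 UMIs in 4T1P and 58.4% in 4T1M, against 12.6% and 10.1% of all neutrophil UMIs. Their Anxa1 level was 8905 CPM in 4T1P and 6233 CPM in 4T1M, which is 10.3-fold and 12.5-fold that of the other neutrophils. The cell with the most Anxa1 held 337 UMIs in 4T1P and 274 in 4T1M, and the 10 highest cells held 47.6% of the neutrophil total in 4T1P and 23.8% in 4T1M. Granule-rich cells were also deep, with a median of 16632 UMIs in 4T1P and 12576.5 in 4T1M against 2995.5 and 2920 in the other neutrophils. After thinning of each cell to 1000 UMIs, 18 of 18 and 46 of 46 granule-rich cells still had an Anxa1 UMI.

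**Figure D1:**
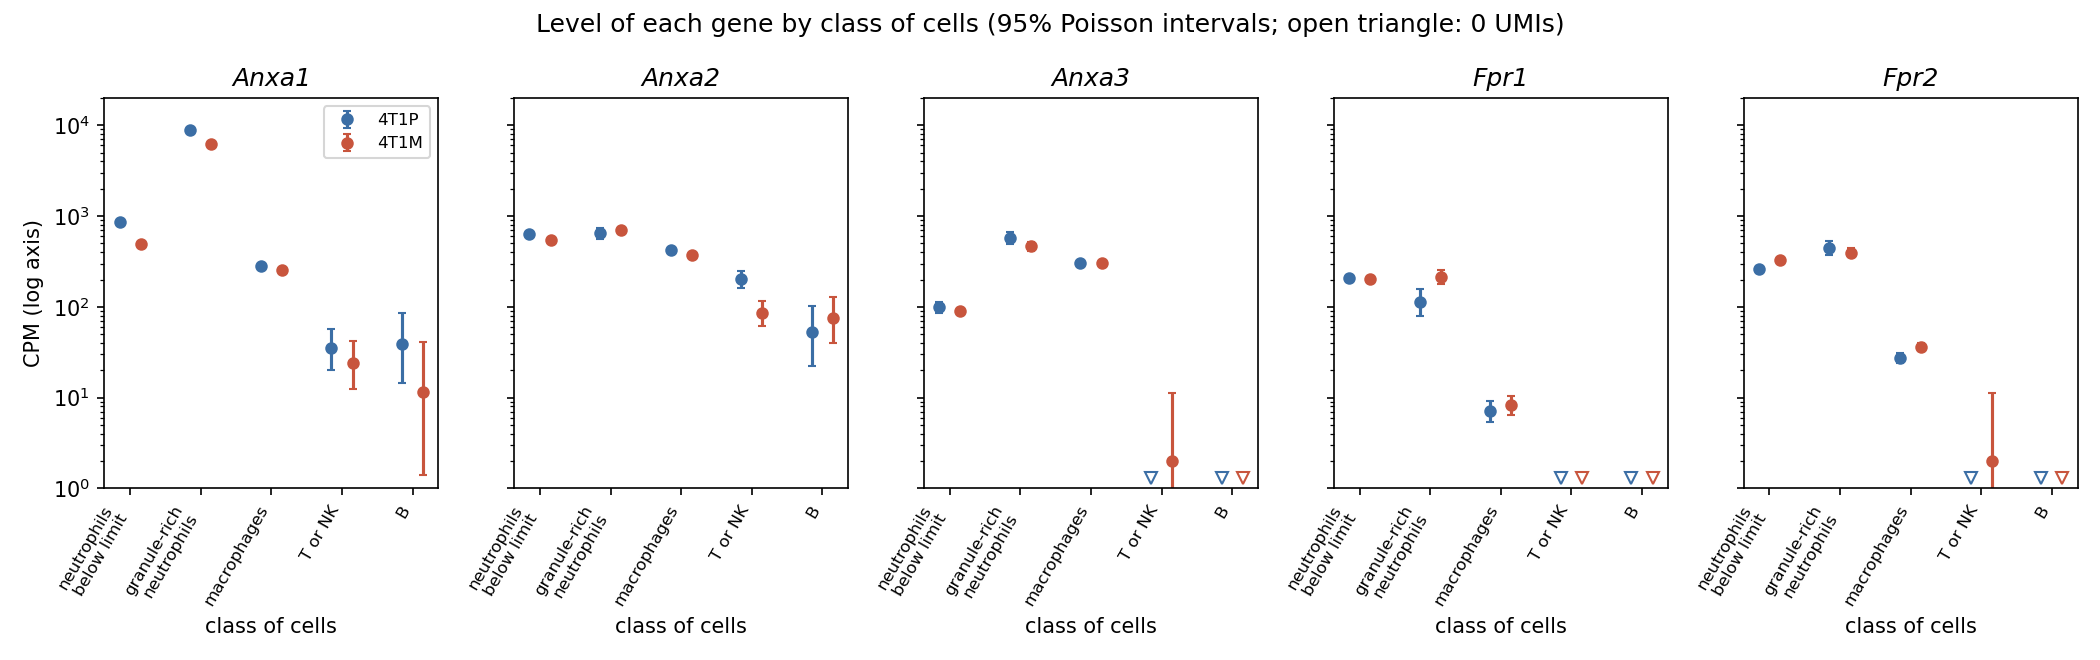
CPM on a log axis of each gene (panels) in 5 classes of cells, for 4T1P and 4T1M, with 95% Poisson intervals; open triangles near the base mark 0 UMIs. Anxa1 is highest in granule-rich neutrophils (8905 and 6233 CPM), and Fpr1 and Fpr2 stand far higher in both neutrophil classes than in macrophages.

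The level of Anxa1 climbed in steps with granule content. In 4T1P it was 483 CPM in the 489 neutrophils with no UMI of Camp, Ngp or Ltf, 1045 CPM in cells with up to 0.1%, and 3528 CPM in cells with 0.1 to 1%. The next ranges, 1 to 5% and 5% or more, held only 8 and 10 cells and stood at 6988 and 9728 CPM. In 4T1M the same ranges gave 345, 519, 2842, 5311 and 7228 CPM. The increase over the first 3 ranges, each of at least 23 cells, was therefore seen in both libraries without the small ones. Median UMIs per cell rose over the same ranges, from 2859 to 20324 in 4T1P and from 2725 to 18724 in 4T1M. Whether the level of Anxa1 followed granule content or depth was not tested. Around the limit of 1%, the 6 cells of 4T1P at 0.5 to 1% stood at 4032 CPM. In 4T1M, 4 cells just below the limit stood at 3998 CPM and 12 cells at 1 to 2% at 4786 CPM.

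**Figure D2:**
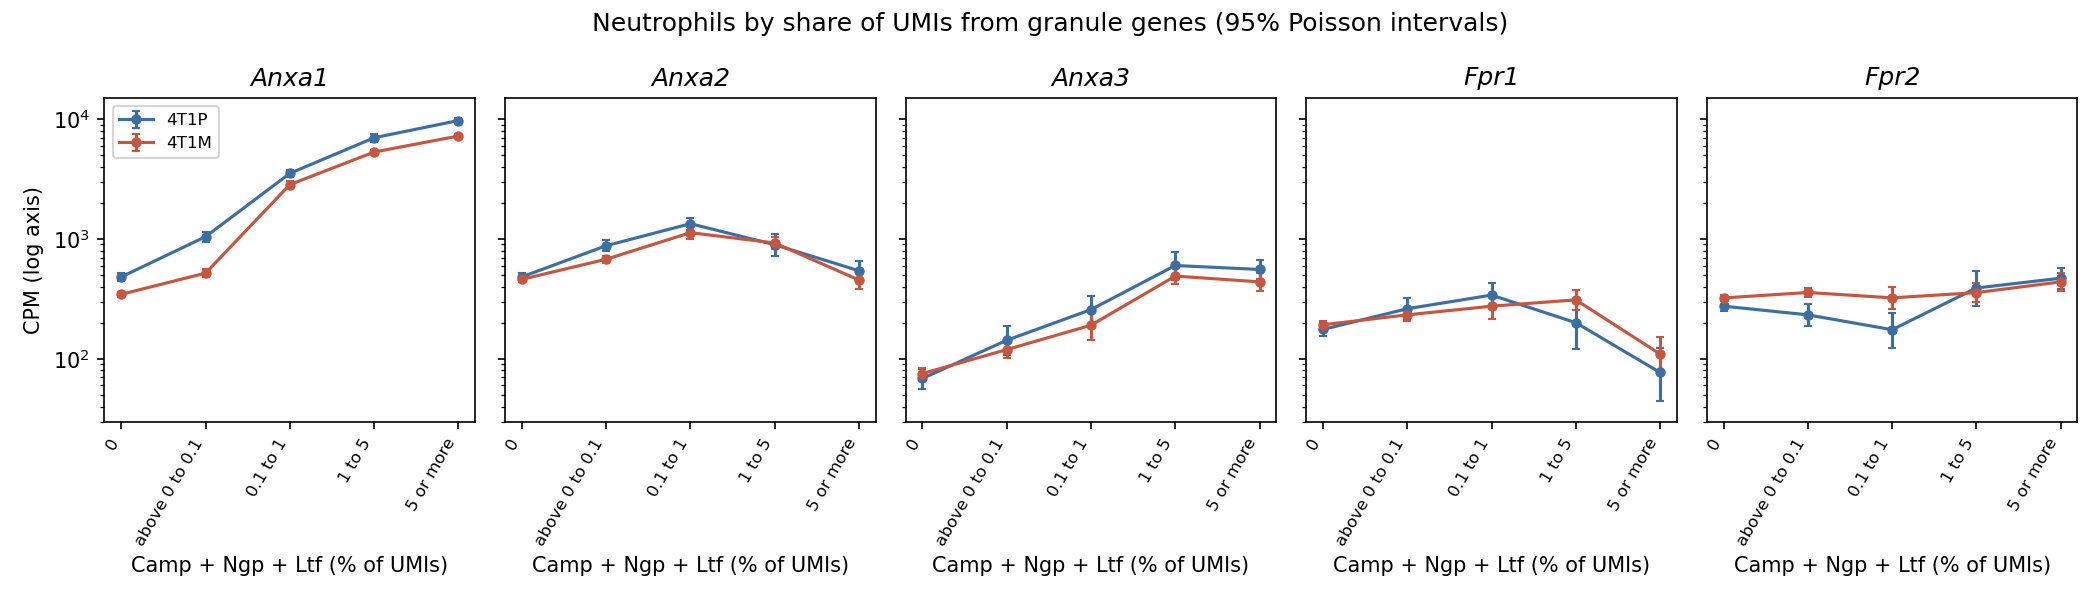
CPM on a log axis of each gene in neutrophils grouped by the percent of UMIs from Camp, Ngp and Ltf, for 4T1P and 4T1M, with 95% Poisson intervals. Anxa1 rises from 483 to 9728 CPM in 4T1P and from 345 to 7228 CPM in 4T1M, Anxa3 rises less, and Fpr1 is lowest in the last range.

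Between the tumors, Anxa1 was lower in 4T1M neutrophils by a log2 ratio of -0.80 (-0.86 to -0.75). Among 1234 genes of at least 100 CPM it had the 5th lowest ratio, between Aldh2 (aldehyde dehydrogenase, -0.88) and Ngp (-0.71). It was 1 of 5 members at or below a log2 ratio of -0.5, where 12.0% of 9994 genes lay, and 0 of 5 lay at or above 0.5, where 17.7% lay; this contrast chose Anxa1, so nothing is read from the count. Without the granule-rich cells Anxa1 stood at 866 CPM in 4T1P and 498 CPM in 4T1M, again a log2 ratio of -0.80 (-0.88 to -0.71), the 4th lowest of 1255 genes. In the granule-rich cells the log2 ratio was -0.51 (-0.58 to -0.45).

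The ratio varied with granule content and with depth. Within the 5 ranges of granule content the log2 ratios were -0.48, -1.01, -0.31, -0.40 and -0.43 from lowest to highest, and every interval lay below 0. With the ranges given the UMI totals they have in 4T1M, the ratio of all neutrophils was -0.49 (1508 against 1077 CPM). By UMIs per cell it was 0.05 (-0.43 to 0.54) in neutrophils under 2000 UMIs, -0.55 at 2000 to 4000, -0.40 at 4000 to 8000 and -0.80 at 8000 or more. Below the granule limit, the 35 and 83 cells of 8000 UMIs or more had 2129 CPM in 4T1P and 811 CPM in 4T1M, a log2 ratio of -1.39 (-1.53 to -1.25). Granule content was not matched within the ranges of UMIs per cell. Cells of 0.1 to 1% granule content had median UMIs of 7647 in 4T1P and 5520 in 4T1M. The parts of depth and granule content in this ratio were not told apart. Leaving out the 87 and 230 neutrophils above 2 times the median UMIs of the neutrophils in their library brought the ratio to -0.31 (-0.43 to -0.18), and thinning every cell to 1000 UMIs to -0.48 (-0.64 to -0.32). By S100a8 and S100a9 content, below the granule limit, it was -0.73 at 1.5 to 5%, -0.39 at 5 to 10% and -0.54 at 10% or more.

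**Figure D3:**
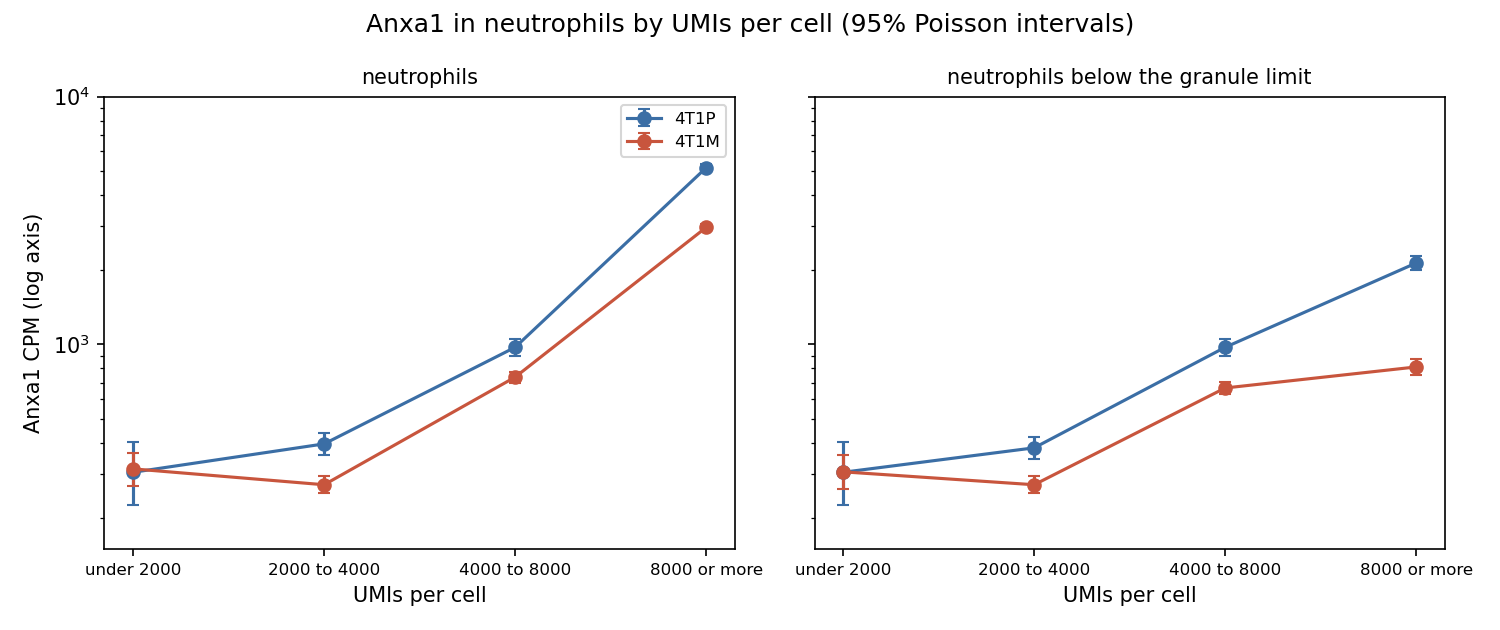
Anxa1 CPM on a log axis by UMIs per cell, for all neutrophils (left) and those below the granule limit (right), with 95% Poisson intervals. The libraries lie together under 2000 UMIs and lie farthest apart at 8000 UMIs or more, with 2129 against 811 CPM on the right.

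A smaller share of 4T1M neutrophils had an Anxa1 UMI. At 1000 UMIs per cell, 208 of 612 did in 4T1P (34.0%, exact binomial interval 30.2 to 37.9%) and 435 of 1682 in 4T1M (25.9%, 23.8 to 28.0%; 4 shallower cells were left out). Unthinned, the shares were 56.5% and 44.7%. T or NK cells, with median UMIs of 5640 and 5542.5, gave 2 of 70 (2.86%) and 2 of 89 (2.25%) at the same thinned depth. The share in macrophages was 21.9% in 4T1P and 18.2% in 4T1M.

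Neutrophils with and without Anxa1 differed in other transcripts. At 1000 UMIs, Anxa1 was found in 56.5% of 4T1P neutrophils with a Camp, Ngp or Ltf UMI against 31.1% without, and in 59.5% against 21.6% in 4T1M. Below the granule limit these were 41.2% (27.6 to 55.8%, 51 cells) against 31.1% (27.2 to 35.2%) in 4T1P, where the intervals overlapped. In 4T1M they were 46.5% (38.2 to 55.0%) against 21.6% (19.5 to 23.8%). Over all neutrophils, the shares with and without Retnlg, a resistin-like gene of neutrophils, were 40.2% against 25.7% in 4T1P and 34.4% against 16.9% in 4T1M. With Il1a, Tnf or Il23a, cytokine genes of activated cells, the order was the opposite, 25.3% against 39.5% and 22.4% against 31.0%. For Ly6e, an interferon-stimulated gene, they were 36.1% (of 36 cells) against 33.9% in 4T1P and 21.5% against 26.5% in 4T1M. Cells of 1 library are not replicates, and these shares are descriptions.

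In macrophages Anxa1 had a log2 ratio of -0.15 (-0.23 to -0.07), which became 0.05 (-0.06 to 0.15) with a mitochondrial limit of 5% and -0.40 (-0.50 to -0.30) where neutrophils were held under 0.1% and macrophages to at least 1% of their macrophage genes. Macrophages under 0.5% of UMIs from the C1q genes and Apoe (163 and 215 cells) held 432 CPM in 4T1P and 496 CPM in 4T1M, and the other macrophages 239 and 191 CPM, so the order of the tumors differed between these ranges. None of the 5 members passed 0.5 in either direction in macrophages, where 9.86% of 12352 genes lay at or below -0.5 and 9.20% at or above 0.5.

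Anxa2 was found in both neutrophils and macrophages. It stood at 634 CPM in 4T1P neutrophils (603 to 666) and 555 CPM in 4T1M neutrophils (537 to 573), a log2 ratio of -0.19 (-0.28 to -0.11). From lowest to highest granule content the log2 ratios were -0.07 (-0.19 to 0.05), -0.37, -0.25, 0.05 and -0.26. The intervals of -0.37 and -0.25 lay below 0, and the others covered 0. In macrophages the levels were 428 and 368 CPM and the log2 ratio -0.22 (-0.28 to -0.15), or -0.65 under the stricter macrophage limits. With a mitochondrial limit of 5% the macrophage ratio was -0.11 (-0.19 to -0.02). With cells thinned to 1000 UMIs it was -0.14 (-0.35 to 0.08), an interval that covered 0. Macrophages under 0.5% of UMIs from the C1q genes and Apoe stood at 855 CPM in 4T1P and 939 CPM in 4T1M, above the neutrophils, and the other macrophages at 315 and 225 CPM. Neutrophils exceeded the macrophages as a whole 1.48-fold and 1.51-fold. Anxa2 did not follow granule content to its end, since it peaked at 0.1 to 1%, with 1341 CPM in 4T1P and 1129 CPM in 4T1M, and stood at 543 and 454 CPM at 5% or more. T or NK cells had 201 CPM in 4T1P (92 UMIs) and 85.8 CPM in 4T1M (43 UMIs), of which 1 cell of 4T1P held 25.

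Anxa3 had the reverse order of classes. Macrophages held 302 CPM in 4T1P and 300 CPM in 4T1M, which was 1.90-fold and 2.34-fold the neutrophil levels of 159 and 128 CPM. Granule-rich neutrophils were the exception, with 570 CPM in 4T1P and 465 CPM in 4T1M, 5.74-fold and 5.16-fold the other neutrophils, and they held 45.3% and 36.7% of the neutrophil Anxa3 UMIs. T or NK and B cells together had 0 UMIs in 4T1P and 1 in 4T1M. The log2 ratio was -0.01 (-0.08 to 0.07) in macrophages, -0.31 (-0.48 to -0.13) in neutrophils and -0.14 (-0.37 to 0.10) below the granule limit. In neutrophils it was 0.14 (-0.18 to 0.46) without the cells above 2 times the median UMIs and -0.08 (-0.52 to 0.38) with every cell thinned to 1000 UMIs.

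The receptors were found mainly in neutrophils. Fpr1 stood at 195 CPM in 4T1P neutrophils (178 to 213) and 206 CPM in 4T1M neutrophils (195 to 217), and at 7.07 and 8.24 CPM in macrophages, 27.5-fold and 25.0-fold lower. Fpr2 stood at 282 CPM (262 to 304) and 337 CPM (323 to 351) in neutrophils and at 27.5 and 36.1 CPM in macrophages, 10.3-fold and 9.33-fold lower. T or NK and B cells had 0 UMIs of Fpr1 in both libraries and 1 of Fpr2. At 1000 UMIs, Fpr1 was found in 0.777% of 4T1P and 1.17% of 4T1M macrophages, and 0 of 70 T or NK cells in 4T1P. At that depth this allows a share of cells with a UMI of up to 4.29% by a limit of 3 counts. The exact binomial interval ends at 5.13%. The part of free RNA in the low macrophage level was not tested.

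Between the tumors, Fpr1 had a log2 ratio of 0.08 (-0.07 to 0.23) in neutrophils and -0.01 (-0.17 to 0.15) below the granule limit, and both intervals covered 0. In the granule-rich cells it was 0.91 (0.37 to 1.48, 36 and 142 UMIs). Within the ranges of this class it was 0.63 (-0.08 to 1.42) at 1 to 5% and 0.51 (-0.36 to 1.44) at 5% or more. Both of these intervals covered 0. At 1000 UMIs, 4 of 18 granule-rich cells in 4T1P and 5 of 46 in 4T1M had an Fpr1 UMI. In cells of 8000 UMIs or more below the granule limit the log2 ratio of Fpr1 was -0.48 (-0.83 to -0.12). Fpr2 had log2 ratios of 0.26 (0.13 to 0.38) in all neutrophils, 0.35 (0.22 to 0.49) below the granule limit and 0.39 (0.15 to 0.64) in macrophages. In the granule-rich cells it was -0.17 (-0.47 to 0.13). With cells thinned to 1000 UMIs the value of all neutrophils was 0.33 (0.07 to 0.60). Below the granule limit a separate random thinning gave 0.17 (-0.08 to 0.43). The thinning used for the shares gave 246 CPM in 4T1P and 317 CPM in 4T1M below that limit. In macrophages the thinned value was 0.76 (-0.17 to 1.76), and the value with a mitochondrial limit of 5% was 0.05 (-0.27 to 0.38). The intervals of 0.17, 0.76 and 0.05 covered 0. Neutrophil markers in macrophages were also higher in 4T1M, at 1483 CPM against 807 CPM, and their part in the Fpr2 ratio there was not tested. Fpr1 was lowest in the cells richest in granule transcripts, with 76.9 CPM (17 UMIs) in 4T1P and 110 CPM in 4T1M at 5% or more, while Fpr2 stood at 471 and 439 CPM there. At 1000 UMIs, 13.7% and 13.6% of neutrophils had an Fpr1 UMI and 21.9% and 24.3% an Fpr2 UMI. Fpr2 was found in 29.8% of 4T1P neutrophils with an Fpr1 UMI against 20.6% without, and in 35.1% against 22.6% in 4T1M.

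**Figure D4:**
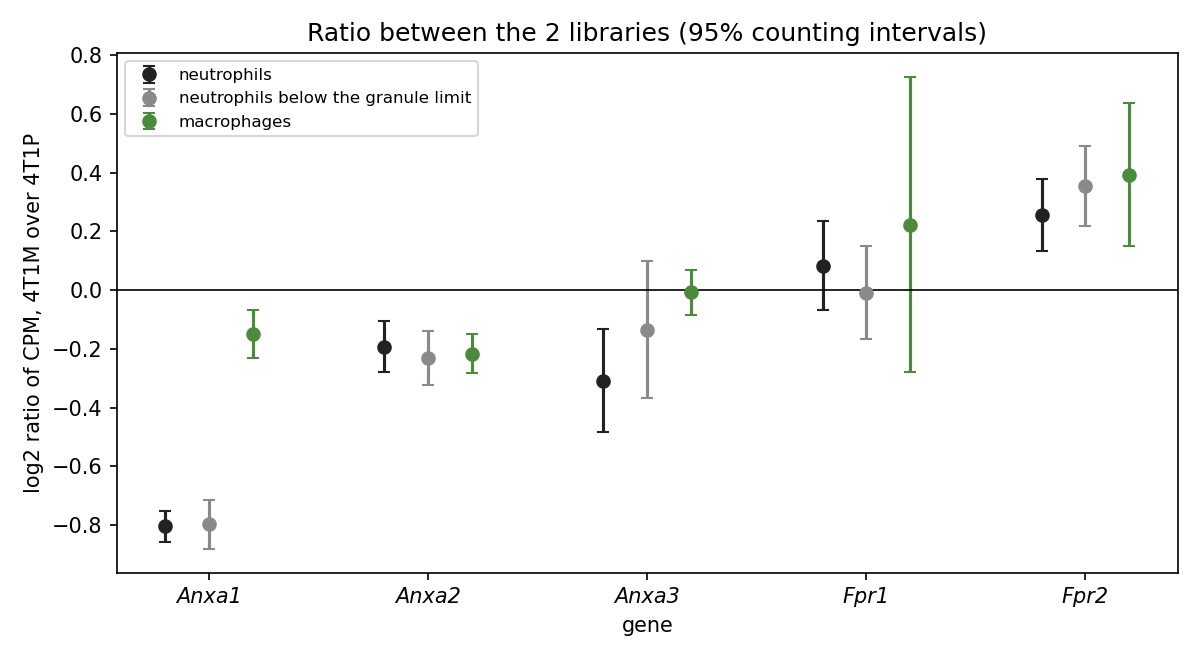
Log2 ratio of CPM (4T1M over 4T1P) of each gene in neutrophils, neutrophils below the granule limit and macrophages, with 95% counting intervals. Anxa1 is at -0.80 in both neutrophil sets and -0.15 in macrophages, and Fpr2 is above 0 in all 3.

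Genes with the most similar pattern were ranked by Pearson's r of log2(CPM + 10) over 16 class-by-library groups and 3161 genes, which share cells of the same 2 libraries. Granule-rich neutrophils and cells over both limits entered for 4T1M, and those of 4T1P (18 and 11 cells, under the minimum of 20) did not. Closest to Anxa1 were Pygl (glycogen phosphorylase, r = 0.97), Pira2 (0.96), Mgst1 (0.95), Tspo (0.95) and Sqor (0.95). Closest to Anxa2 were Cdk5r1 (0.96), Ltb4r1 (the leukotriene B4 receptor, 0.94) and Adam8 (0.93). Anxa3 was closest to Clec4a2 (0.99), Pgd (0.98) and Pirb (0.97). For Fpr1 these were Stfa2 (0.99), Wfdc21 (0.99) and Cstdc5 (0.98), and for Fpr2 Cdc42ep2 (0.98), Slfn4 (0.98) and Trem3 (0.97). Fpr1 and Fpr2 had r = 0.93 with each other, and Anxa3 and Fpr1 had the lowest r of the 10 pairs at 0.55.

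Among other genes of the system, 5 of 9 other annexins reached 10 UMIs in neutrophils, with 1 at or below -0.5 (Anxa6, 8.39 to 5.17 CPM), where 12.0% of all genes lay, and 1 at or above 0.5 (Anxa4, 15.6 to 24.2 CPM), where 17.7% lay. Their median log2 ratio was -0.25, against 0.03 over all 9994 genes. The intervals of Anxa5, Anxa6 (21 and 34 UMIs) and Anxa7 covered 0, and those of Anxa4 and Anxa11 did not. Among genes of at least 100 UMIs, 0 lay at or below -0.5 (2.99% of all such genes) and 1 at or above 0.5 (10.2%). Anxa11 stood at 108 CPM in 4T1P and 77.4 CPM in 4T1M, and Anxa5 at 55.5 and 46.8 CPM. In macrophages Anxa5 was at 405 and 435 CPM.

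Of the 4 annexin-binding S100 genes, 0 lay at or below -0.5 in neutrophils (12.0% of all genes) and 2 at or above 0.5 (17.7%). Below the granule limit 1 lay at or below -0.5 (S100a11, -0.50; 12.4% of all genes) and 1 at or above 0.5 (17.2%). In all neutrophils S100a11, the partner of Anxa1, stood at 2305 CPM in 4T1P and 1671 CPM in 4T1M (log2 ratio -0.46), and S100a6 at 5504 and 4513 CPM (-0.29). S100a10, the partner of Anxa2, stood at only 33.6 and 49.5 CPM in neutrophils (0.56) against 477 and 387 CPM in macrophages. The other 5 formyl peptide receptor genes stayed under 10 UMIs. Of the 4 detected ligands of these receptors, 2 lay at or below -0.5 (12.0% of all genes), Camp (3575 to 1908 CPM) and Saa1 (15 and 10 UMIs), and Saa3, serum amyloid A, stood at 711 and 729 CPM (0.04).

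Of 11 other chemoattractant receptors in neutrophils, 0 lay at or below -0.5, where 12.0% of all genes lay. At or above 0.5, where 17.7% of all genes lay, were 2, C3ar1 and Ccr2, both under 25 CPM. The median of the 11 was 0.22. C5ar1 stood at 401 and 407 CPM, Cxcr2 at 325 and 377 CPM (0.21) and Ptafr, the receptor for platelet-activating factor, at 371 and 522 CPM (0.49). Of the 19 genes of the signaling below these receptors, 0 lay at or below -0.5 (12.0% of all genes). At or above 0.5 (17.7% of all genes) lay 2, Pik3cg and Pik3r5, or 1 below the granule limit (17.2%). The glucocorticoid list, to which Anxa1 is related by its induction, had 0 of 11 at or below -0.5, beside 12.0% of all genes. It had 2 at or above 0.5, Fkbp5 and Sgk1, again beside 17.7% of all genes. Below the granule limit it had 1 (17.2% of all genes), and 1 among genes of at least 100 UMIs (10.2%). Dusp1 stood at 1282 and 1314 CPM (0.03). Annexin A1 was first known to restrain phospholipase A2 activity, though not that of each enzyme listed here. Of 4 phospholipases A2, 3 lay at or above 0.5 (17.7% of all genes), all under 15 CPM, with Pla2g6 from 2 and 9 UMIs. Below the granule limit only 1 did (17.2% of all genes), and among genes of at least 100 UMIs also 1 (10.2%). Pla2g7 stood at 435 and 437 CPM. Only 1 of 3 serine proteases listed reached 10 UMIs in neutrophils, Prtn3, which cleaves annexin A1. It stood at 14.8 and 10.3 CPM in neutrophils, a log2 ratio of -0.53 (-1.11 to 0.10) from 37 and 68 UMIs. Below the granule limit the ratio was 0.21 (-0.64 to 1.23). In macrophages Prtn3 stood at 43.8 CPM in 4T1P and 22.8 CPM in 4T1M, a log2 ratio of -0.94 (-1.19 to -0.70).

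Of the granule and maturation genes, 4 of 12 lay at or below -0.5 in neutrophils (Ltf, Ngp, Lcn2 and Padi4), beside 12.0% of all genes, and 0 at or above 0.5 (17.7%). Below the granule limit 4 of 11 lay at or below -0.5 (12.4% of all genes) and 2 at or above 0.5 (17.2%). These 2 were Chil3 (1.60, from 9 and 74 UMIs) and Cebpe (0.94, from 5 and 26 UMIs). In all neutrophils Chil3 stood at -0.47 and Cebpe at -0.13. Interferon-stimulated genes had 9 of 11 at or above 0.5 and 0 at or below -0.5, and inflammatory cytokines 3 of 4 and 0, beside 17.7% and 12.0% of all genes. Il1a stood at 644 and 1620 CPM and Tnf at 292 and 693 CPM. These lists were written with earlier results of these libraries known and are no independent evidence of a direction.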

How the data were processed

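GR1+ cells of 4T1P and 4T1M tumors were measured in 1 pooled 10x Genomics library each. The authors aligned the reads to mm10 (GRCm38) and deposited the UMI counts of each gene in each barcode as raw values without normalization. Cell Ranger 4.0.0 is named in the submitters' processing notes, and the methods name another version. Cells were filtered with the limits of the methods, and classes were set by the gene shares given in the report. No clustering and no doublet caller were run; cells over both limits (11 and 53) entered neither class, and an alternative left out the deepest cells.

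For each class, UMIs were summed within a library and scaled to CPM with exact Poisson intervals, with exact conditional intervals for ratios and exact binomial (Clopper-Pearson) intervals for shares of thinned cells, all at 95%. Background and list counts used genes whose UMIs in the 2 libraries summed to at least 10, after adding 0.5 to each sum. The neutrophil sums held 2502947 UMIs in 4T1P and 6580005 in 4T1M, so 3 UMIs correspond to 1.20 CPM in 4T1P. Scaling factors came from edgeR 4.0.16 (TMM) and DESeq2 1.42.0, used for scaling only. Python 3.11.15 with scipy 1.17.1 and R 4.3.3 were used. The ratio intervals were tested on simulated Poisson counts and the thinning on neutrophils of 4T1P. The simulation did not include the uneven spread of UMIs over cells. There are no replicates of a tumor type, so no p-value is given.

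The members, gene lists and limits were chosen with earlier results of these data known. Named genes are the members, genes of the lists, the genes most like each member and the genes beside Anxa1 in the order of ratios. Positions and read sharing came from GENCODE vM21, promoters from RefSeq (4 of the 5 members matched). The data of the study other than these 2 libraries were not analysed here.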

Additional observations from a re-analysis of the deposited data

Results flagged for a closer look

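Anxa1 was also found in the barcodes left out of all comparisons. In barcodes under 500 genes it stood at 137 CPM in 4T1P (665 barcodes) and 138 CPM in 4T1M (1022 barcodes). In barcodes over 5000 genes it stood at 397 CPM (136 barcodes) and 481 CPM (49 barcodes). Among those of 500 to 5000 genes with over 10% mitochondrial UMIs it stood at 345 CPM (420 barcodes) and 239 CPM (472 barcodes). They are listed because the signal lies in barcodes that enter no comparison. These were not sorted into classes, and nothing about expression is read from them.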

How the results depend on the processing

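Over 11 alternatives the log2 ratio of Anxa1 in neutrophils kept its sign and ran from -0.94 to -0.31, and over 12 below the granule limit from -0.90 to -0.36. In all neutrophils and below the granule limit it was -0.94 and -0.90 with a mitochondrial limit of 5%, -0.31 and -0.36 without cells above 2 times the median UMIs, -0.48 and -0.59 with cells thinned to 1000 UMIs, and -0.56 and -0.57 with every cell weighted equally, an alternative chosen after the data were seen, as were the ranges of UMIs per cell. With a neutrophil limit of 3% it was -0.74 in all neutrophils, and with a granule limit of 0.1% it was -0.62 below that limit. The thinned values of -0.48 and -0.59 came from separate random draws, so the gap between them includes error of the draws. In macrophages Anxa1 reversed to 0.046 with the mitochondrial limit of 5% and was -0.40 with stricter macrophage gene limits. Anxa3 in neutrophils reversed to 0.14 without cells above 2 times the median UMIs and was -0.078 with cells thinned to 1000 UMIs. The causes were not tested. Anxa2, Fpr1 and Fpr2 in neutrophils kept their sign in all 11 alternatives, Anxa2 with an interval that covered 0 when thinned (-0.13, -0.32 to 0.06), and Fpr1 below the granule limit in 7 of 12. TMM and DESeq2 scaling shifted neutrophil ratios by -0.04 and -0.05.

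The share of genes past the fold rests on the minimum of UMIs. With at least 100 UMIs, 2.99% of genes lay at or below -0.5 and 10.2% at or above 0.5 in neutrophils, 3.29% and 9.53% below the granule limit, and 4.29% and 4.57% in macrophages. With at least 1 UMI, 23.4%, 23.8% and 19.3% lay at or below -0.5 in these classes, and 18.5% at or above 0.5 in macrophages. Unthinned, 56.5% of 4T1P and 44.7% of 4T1M neutrophils had an Anxa1 UMI. No paired analysis was possible because each tumor type has 1 library. Fpr1 in macrophages rests on 62 and 77 UMIs.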

Other observations

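The remaining cells were not neutrophils, macrophages, T or NK cells, B cells or cells over both limits. They had 87.3 CPM of Fpr2 in 4T1P (205 cells) and 187 CPM in 4T1M (629 cells), a log2 ratio of 1.10 (0.75 to 1.46). Fpr1 stood there at 27.7 and 46.2 CPM, a log2 ratio of 0.74 (0.11 to 1.42), and Anxa1 at 325 and 297 CPM, a log2 ratio of -0.13 (-0.33 to 0.07). Neutrophil markers summed to 5447 and 7636 CPM in these cells. Just below the neutrophil limit, at 0.75 to 1.5% of UMIs from S100a8 and S100a9, Anxa1 stood at 282 CPM (44 cells) in 4T1P and 108 CPM (193 cells) in 4T1M, and just above it, at 1.5 to 3%, at 435 CPM (77 cells) and 193 CPM (288 cells). In the cells just below the limit Fpr1 stood at 137 CPM (19 UMIs) in 4T1P and 58.8 CPM (29 UMIs) in 4T1M, and Fpr2 at 296 and 264 CPM. Both were lower in 4T1M there, opposite to their order over all the remaining cells.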
